A study of Mus musculus with 4 samples.

Results

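The collagen genes described here are 33 mouse genes, of 28883 genes in the series, that encode collagen chains and were chosen by their symbols, with earlier results of these data known. Collagen genes outside this list were not analysed here. Their entries were found through the Ensembl identifiers that GENCODE vM21 pairs with these symbols. DNA methylation was read by bisulfite sequencing in C3H10T1/2 cells, a mouse embryo line that behaves as mesenchymal stem cells (MSCs) and can be driven towards osteoblasts (OB), the bone-forming cells. Cells received a control, non-targeting siRNA (NC) or siRNA against DNMT1, the enzyme that copies methylation onto newly replicated DNA, for 48 h. Of each, some were left uninduced and some were kept for 3 days in osteogenic medium that added β-glycerophosphate at 10 mM, ascorbic acid at 50 μM, dexamethasone and penicillin-streptomycin. These are 4 conditions, named NC uninduced, siDNMT1 uninduced, NC OB and siDNMT1 OB, and each was sequenced as 1 library, so no difference below has a replicate check and none has a p-value. The level of DNMT1 left after the siRNA was not measured in these data.

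The measurement is the methylation level, the fraction (0 to 1) of CpG cytosines that were methylated in a region, averaged over all cells and both alleles. A gene can have an entry for its promoter (2 kb upstream of the start), 5′ UTR, exons, introns and 3′ UTR, where UTR sequence is also part of the exons. Which transcript start the promoter entries use is not stated, and some may reach into a gene. Outside the list, Serpinh1 had the same level at its promoter, 5′ UTR and exons in each library. Positions and CG counts below use the GENCODE gene start, which may differ. Of the 33 genes, all have an intron level in all 4 libraries, 31 have an exon level, 23 a 5′ UTR level, 21 a promoter level and 12 a 3′ UTR level, which makes 120 regions out of 76155 gene regions that all 4 libraries list. A region is said to have risen or fallen where its level differed by at least 0.1 between the compared libraries, and is called higher or lower otherwise. The values come without read counts, so depth is unknown and no interval can be put on a single level. The siDNMT1 OB library listed the fewest gene regions, 77193, and the siDNMT1 uninduced library the most, 78205. The assay is labelled RRBS, while the methods describe sonicated DNA and name no restriction enzyme.

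Collagens are triple-helical proteins of the extracellular matrix. Fibril-forming chains build the rope-like fibrils of bone, skin and cartilage, type IV chains build the sheet of the basement membrane, fibril-associated chains decorate fibrils, and transmembrane collagens sit on the cell surface. Ascorbic acid in osteogenic medium is a cofactor of the prolyl hydroxylases that stabilise the triple helix, and matrix deposition is a hallmark of osteoblast differentiation. In mammalian genes CpG-dense starts are usually unmethylated, while CpG-poor promoters and the transcribed body usually carry methylation.

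The sequences just upstream of the starts of 6 members show this contrast, and they were chosen because they range from CpG-dense to CpG-poor and include both promoters that changed most with siDNMT1. They are RefSeq reference bases of GRCm38.p6 (a C57BL/6J genome, not that of the C3H line), 5′ to 3′ on the strand of the gene, cut from the 250 bases upstream to the longest stretch that no annotated exon covers. Capitals mark each CG dinucleotide, the site whose methylation is measured.

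Col5a1: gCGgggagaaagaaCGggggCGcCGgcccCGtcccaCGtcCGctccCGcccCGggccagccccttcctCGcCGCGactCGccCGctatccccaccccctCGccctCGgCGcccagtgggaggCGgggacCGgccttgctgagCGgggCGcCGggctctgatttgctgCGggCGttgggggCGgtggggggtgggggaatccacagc
Col16a1: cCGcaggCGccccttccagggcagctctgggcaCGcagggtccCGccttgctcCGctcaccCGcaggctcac
Col13a1: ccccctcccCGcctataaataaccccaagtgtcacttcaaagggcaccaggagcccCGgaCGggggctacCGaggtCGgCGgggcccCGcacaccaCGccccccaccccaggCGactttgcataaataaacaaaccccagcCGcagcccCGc
Col8a2: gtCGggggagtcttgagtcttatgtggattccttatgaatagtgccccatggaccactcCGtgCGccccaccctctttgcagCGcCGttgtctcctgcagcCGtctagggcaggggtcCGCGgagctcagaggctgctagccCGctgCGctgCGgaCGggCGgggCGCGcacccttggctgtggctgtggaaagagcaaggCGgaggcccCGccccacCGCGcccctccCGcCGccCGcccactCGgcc
Col6a1: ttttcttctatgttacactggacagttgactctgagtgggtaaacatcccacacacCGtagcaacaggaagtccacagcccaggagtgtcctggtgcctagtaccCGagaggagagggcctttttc
Col17a1: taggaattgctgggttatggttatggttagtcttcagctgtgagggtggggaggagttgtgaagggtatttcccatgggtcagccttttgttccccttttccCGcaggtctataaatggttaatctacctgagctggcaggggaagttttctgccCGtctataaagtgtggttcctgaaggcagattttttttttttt

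The stretch of Col5a1 (chr2:27886175-27886380, plus strand) holds 25 CG in 206 bases, that of Col16a1 (chr4:130047590-130047661, plus) 6 in 72, that of Col13a1 (chr10:61979207-61979358, minus) 11 in 152 and that of Col8a2 (chr4:126286544-126286792, plus) 23 in 249. The stretches of Col6a1 (chr10:76726169-76726294, minus) and Col17a1 (chr19:47692095-47692292, minus) hold 2 CG each, in 126 and 198 bases. The CpG-dense stretches of Col5a1 and Col16a1 lie inside listed CpG islands with very low levels. The island over the Col5a1 start (chr2:27886164-27887152) had levels of 0.0139, 0.0131, 0.0123 and 0.0119, where 4 levels in a row are here and below those of NC uninduced, siDNMT1 uninduced, NC OB and siDNMT1 OB. The island over the Col16a1 start (chr4:130047549-130047915) had 0.0147, 0.0194, 0.0111 and 0.0122. The similarly dense Col8a2 start was not bare of methylation: its island (chr4:126286603-126287116) had 0.440, 0.421, 0.405 and 0.377.

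The level of a whole promoter could differ much from that of the start it leads to. At Col5a1, whose type V chain starts and sizes collagen fibrils, the promoter had a mean level over the 4 libraries of 0.605, the 5′ UTR 0.0139 and the start island 0.0128. At Col16a1, a fibril-associated collagen, the promoter had 0.434 and the start island 0.0143, while the 5′ UTR entry had 0.854. GENCODE gives Col16a1 4 separate 5′ UTR pieces, and the piece at the start holds 15 CG while the pieces downstream hold 2, 1 and 0, so which piece the entry reads is not clear. Over the 19 members with both entries the 5′ UTR had the lower level at 15 (78.9%), against 65.1% of the 10612 genes with both, and the median of 5′ UTR minus promoter was -0.0569, against -0.00759. The exceptions were Col16a1, Col5a3 (0.149 at the promoter and 0.341 at the 5′ UTR), Col4a4 (0.215 and 0.361) and Col9a3 (0.658 and 0.711).

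**Figure D1:**
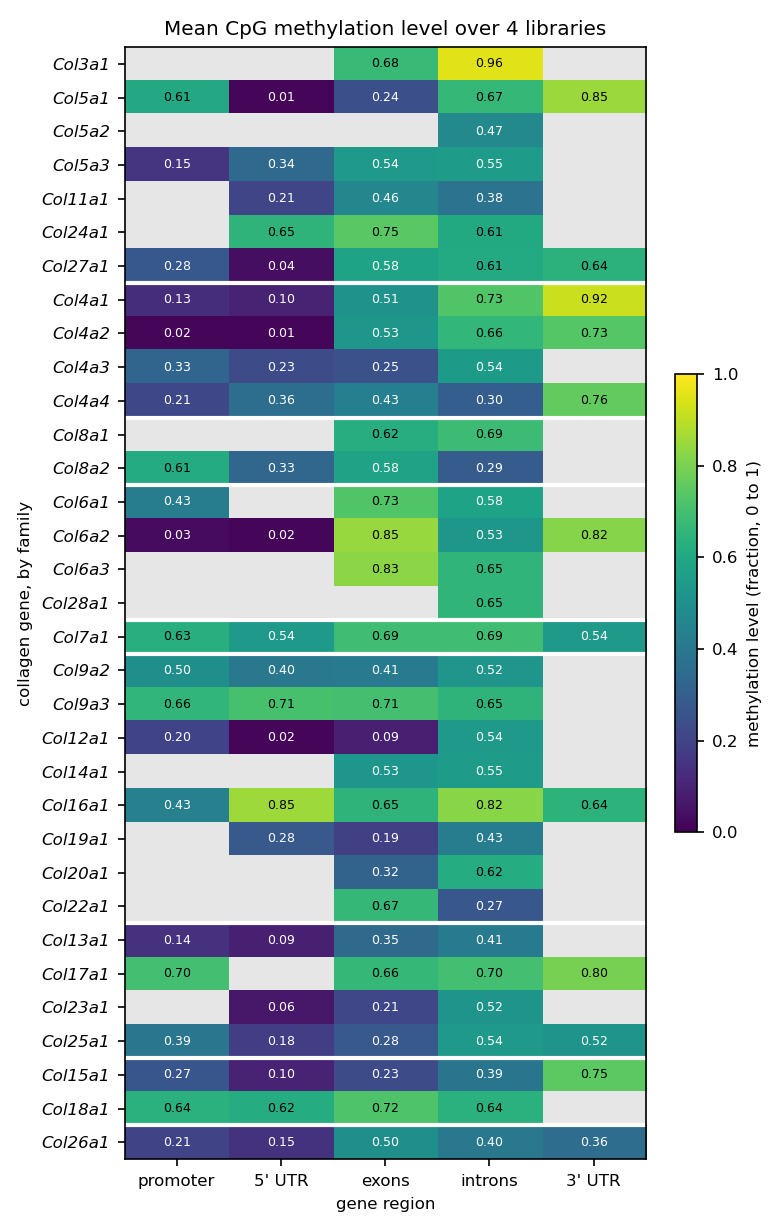
Mean methylation level over the 4 libraries (fraction, 0 to 1) of each collagen gene (rows, grouped by family with white lines) in 5 gene regions (columns), with gray where a level was not listed in all 4 libraries. Promoters and 5′ UTRs range from near 0 at Col4a2 to 0.854 at the Col16a1 5′ UTR, while no intron lies below 0.273.

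Methylation of the collagen genes was higher in the gene body than at the start. In the NC uninduced library the median member level was 0.209 in 5′ UTRs, 0.342 in promoters, 0.526 in exons, 0.595 in introns and 0.755 in 3′ UTRs. The medians over all genes followed the same order and were lower in every class, at 0.0286, 0.191, 0.361, 0.424 and 0.675. The order was the same in the other libraries, with member medians of 0.147, 0.30, 0.514, 0.542 and 0.714 in the siDNMT1 OB library. Mean intron levels of members ran from 0.273 at Col22a1 to 0.957 at Col3a1, and mean exon levels from 0.0898 at Col12a1 to 0.846 at Col6a2. Exon and intron levels could lie far apart in a gene: Col12a1 had 0.0898 in exons and 0.543 in introns, whereas Col22a1 had 0.665 in exons and 0.273 in introns.

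The 5 highest promoter means were those of Col17a1 (0.6998), a transmembrane collagen of the hemidesmosomes that hold epidermis to its basement membrane, Col9a3 (0.658), a cartilage chain, Col18a1 (0.640), the source of endostatin, Col7a1 (0.631), which forms the anchoring fibrils below the epidermis, and Col8a2 (0.615), a chain of Descemet's membrane in the cornea. The Col17a1 promoter had 0.725, 0.698, 0.712 and 0.664. The Col9a3 promoter had 0.686, 0.664, 0.646 and 0.636, that of Col18a1 0.678, 0.630, 0.626 and 0.623, and that of Col7a1 0.634, 0.631, 0.637 and 0.622. In all 5 the siDNMT1 OB library was the lowest, and the share of all promoters with that library lowest was not counted. Of all promoters at a mean level of 0.5 to 0.75, 80.0% were lower with siDNMT1 in OB cells. With induction in siDNMT1 cells 73.1% of all promoters were lower. The 5 collagen promoters overlap in level, and the order among Col18a1, Col7a1 and Col8a2 changes between libraries.

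The 5 lowest promoter means were those of Col4a2 (0.0185), Col6a2 (0.0283), Col4a1 (0.131), Col13a1 (0.143) and Col5a3 (0.149). The Col4a2 promoter had 0.0161, 0.0188, 0.0189 and 0.0203. The Col6a2 promoter, of a chain of the beaded filaments around cells, had 0.0312, 0.0435, 0.0385 and 0, and its 5′ UTR 0.0172, 0.0467, 0.0102 and 0. A listed level of 0 in 1 library gives no limit here, since the reads behind it are unknown. The Col13a1 promoter, of a transmembrane collagen of the neuromuscular junction, had 0.153, 0.142, 0.135 and 0.143, and the Col5a3 promoter had 0.191, 0.159, 0.119 and 0.128.

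Between these extremes lay the promoters of Col9a2 (mean 0.497), Col16a1 (0.434), Col6a1 (0.425), Col25a1 (0.391), Col4a3 (0.327), Col27a1 (0.277), Col15a1 (0.266), Col4a4 (0.215), Col26a1 (0.205) and Col12a1 (0.202), with Col5a1 (0.605) close to the top group. Families did not share a promoter level. The 3 fibril-forming promoters with a level ran from 0.149 to 0.605, the 4 fibril-associated ones from 0.202 to 0.658 and the 3 transmembrane ones from 0.143 to 0.6998. The 4 basement membrane promoters were all at or below 0.327.

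**Figure D2:**
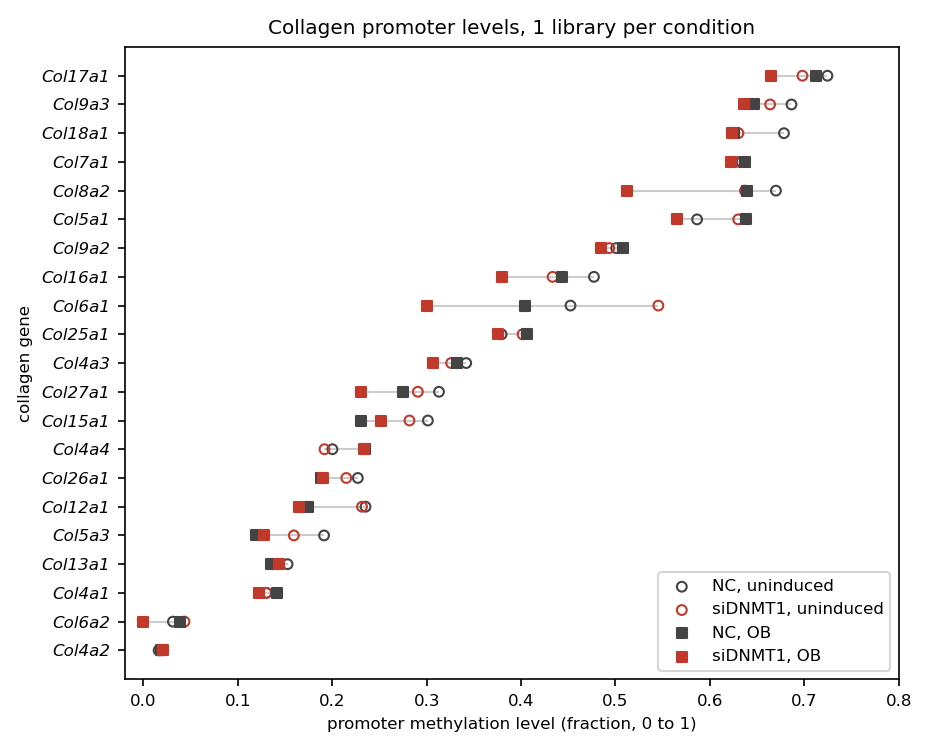
Promoter methylation level (x axis, fraction from 0 to 1) of the 21 collagen genes with a level in all 4 libraries, 1 point per library, with gray lines from the lowest to the highest library. The promoter of Col6a1 spans the widest range, 0.30 to 0.545, and Col8a2 has its siDNMT1 OB library apart from the other 3.

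Promoter levels went down with CpG content, which was counted in the 2 kb upstream of the GENCODE gene start on GRCm38. Over the 21 members Spearman's rho between the number of CG and the mean promoter level was -0.442 (Pearson's r -0.507), and over all 20128 promoters with a position it was -0.338 (r -0.288). These are descriptions, since all promoters share the 4 libraries. The 4 members with at least 60 CG, Col13a1 (67), Col12a1 (82), Col4a1 (91) and Col4a2 (92), had promoter means between 0.0185 and 0.202. The 14 members with 20 to 39 CG ran from 0.0283 at Col6a2 to 0.6998 at Col17a1, with a median of 0.359, beside 0.331 over all such promoters. Col5a1 (48 CG) and Col16a1 (54 CG) had 0.605 and 0.434, beside a median of 0.104 over the 4614 promoters with 40 to 59 CG.

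**Figure D3:**
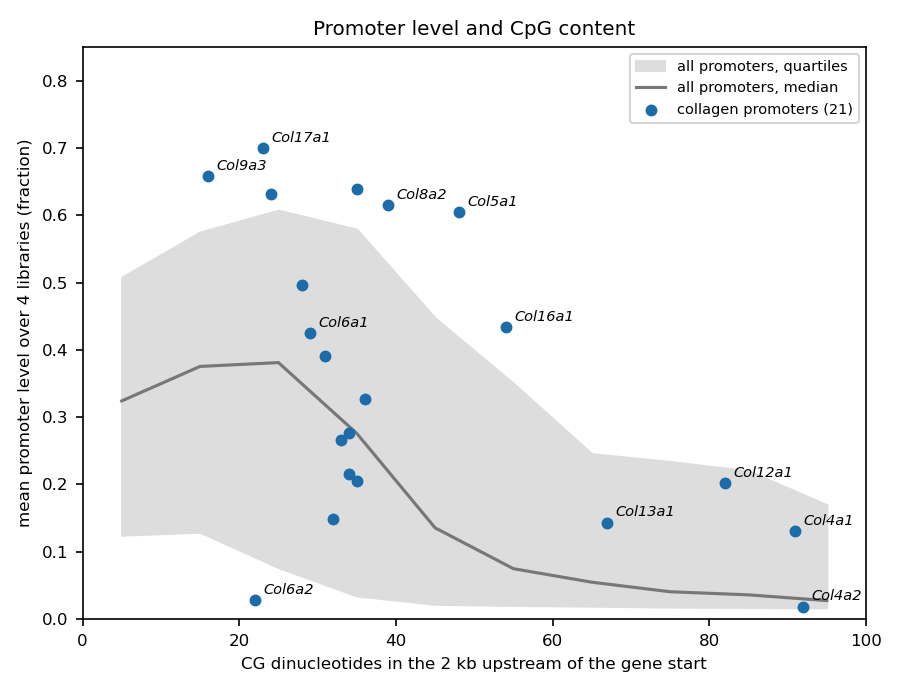
Mean promoter level over 4 libraries (y axis, fraction) against the number of CG dinucleotides in the 2 kb upstream of the gene start (x axis) for 21 collagen genes (points), with the median (line) and quartiles (band) of all promoters in bins of 10 CG. Col17a1, Col9a3, Col7a1, Col18a1, Col8a2, Col5a1 and Col16a1 lie above the band and Col6a2 below it.

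Of the 33 members, 12 had no promoter level in all 4 libraries: Col3a1, Col5a2, Col11a1, Col24a1, Col8a1, Col6a3, Col28a1, Col14a1, Col19a1, Col20a1, Col22a1 and Col23a1. The last was listed in 2 libraries, at 0.0294 in NC uninduced and 0.167 in siDNMT1 OB. The 12 had a median of 24 CG in the 2 kb upstream and the 21 listed members a median of 34. Among members with fewer than 20 CG, 1 of 6 was listed, and among those with 30 to 39 CG, 9 of 10. Over all protein-coding genes 21.5% and 79.1% were listed in these classes. Of the 9 members with at least 40 CG, 6 were listed (66.7%, beside 92.2% of protein-coding genes), since Col8a1 (43 CG), Col23a1 (41 CG) and Col14a1 (66 CG) were not. The promoters of the type III chain Col3a1 (8 CG) and of Col5a2 (10 CG), neighbours on chromosome 1 whose nearest ends lie 24614 bases apart, have levels here only inside the genes: Col3a1 introns had 0.975, 0.963, 0.956 and 0.934, its exons 0.689, 0.717, 0.669 and 0.628, and Col5a2 introns 0.495, 0.496, 0.440 and 0.450.

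Col4a1 and Col4a2, the chains of nearly every basement membrane, are transcribed away from each other on chromosome 8, and their GENCODE starts overlap by 22 bases (Col4a1 from 11198423 to 11312826 on the minus strand, Col4a2 from 11312805 to 11449287 on the plus strand). The 2 kb upstream of each GENCODE start therefore lies in the body of the other gene. The island that covers both starts (chr8:11312172-11313231) had 0.0155, 0.0167, 0.0163 and 0.0151. The promoter of Col4a1 was higher than that island in every library, at 0.130, 0.131, 0.142 and 0.122, and so was its 5′ UTR, at 0.101, 0.109, 0.105 and 0.0865. The 5′ UTR of Col4a2 was low, between 0.00878 and 0.0141.

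Col4a3 and Col4a4, the chains of the glomerular basement membrane, lie head to head on chromosome 1 with 71 bases between them. Their promoters were more methylated than those of Col4a1 and Col4a2, at 0.342, 0.326, 0.332 and 0.307 for Col4a3 and 0.2002, 0.192, 0.234 and 0.233 for Col4a4. No island was listed within 2 kb of their starts. Col6a1 and Col6a2, a pair on chromosome 10 with 85161 bases between them, differed most: the Col6a1 promoter was at 0.30 or more in every library and that of Col6a2 at 0.0435 or less.

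The first comparison asked what siRNA against DNMT1 did to these genes in uninduced MSCs. No member promoter, exon, intron or 3′ UTR entry changed by at least 0.1, and the 5′ UTR of Col24a1 alone did. Over all genes 1.48% of promoters, 1.63% of exons, 1.32% of introns, 2.71% of 3′ UTRs and 1.40% of 5′ UTRs changed by as much, so 1 of 120 entries is close to the background. The direction leaned downwards. With siDNMT1, 15 of 21 promoters had the lower level (53.2% of all promoters), as did 20 of 31 exon entries (56.2% of all), 22 of 33 intron entries (61.9% of all) and 9 of 12 3′ UTRs (64.5% of all), and 11 of 23 5′ UTRs (46.1% of all). The median difference was -0.0106 over member promoters, against -0.000713 over all, -0.00854 against -0.00186 in exons and -0.00366 against -0.00436 in introns. Among promoters at 0.5 to 0.75 the median was -0.0245 over 6 members and -0.00670 over all 3778. At 0.2 to 0.5 it was -0.0103 over 10 and -0.00399 over all, and below 0.2 0.000406 over 5 and 0.000549 over all. In introns at 0.5 to 0.75 it was -0.00631 over 22 members and -0.00734 over all, and at 0.2 to 0.5 0.000974 over 9 and -0.00579 over all. In exons at 0.5 to 0.75 it was -0.00857 over 16 members and -0.00620 over all, and at 0.2 to 0.5 -0.0109 over 11 and -0.00419 over all.

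After 3 days of OB induction the siDNMT1 library was lower than the NC library nearly throughout the gene bodies. It was lower at 31 of 33 intron entries (74.4% of all introns), all but Col5a2 (0.0108) and Col6a3 (0.0121), and at 28 of 31 exon entries (66.9% of all exons), all but Col24a1, Col12a1 (0.0147) and Col4a3 (0.0107). It was lower at 16 of 21 promoters (64.0% of all), 8 of 12 3′ UTRs (78.3% of all) and 12 of 23 5′ UTRs (54.2% of all). The median differences were -0.0202 in introns (all introns -0.0131), -0.0136 in exons (-0.00690), -0.0197 at promoters (-0.00371), -0.0326 in 3′ UTRs (-0.02004) and -0.000208 in 5′ UTRs (-0.000697). The sign of the median depends on the scaling. Each library was centred on the median of all regions of the class whose mean level reached 0.5. The member median then turned to 0.00223 at promoters and 0.00110 over exon and intron entries together. That centring takes the shift of methylated regions from members of every level, and 5 member promoters lay below 0.2 and 10 at 0.2 to 0.5. It therefore does not compare members with regions of like level. Beside introns of like level the gap to all genes was smaller. At a mean level of 0.5 to 0.75 the median was -0.0202 over 22 members and -0.0211 over all 6491 introns, and 21 of the 22 members and 84.6% of all were lower. At 0.2 to 0.5 it was -0.0202 over 9 members and -0.0153 over all, and at 0.75 and above -0.0249 over 2 members and -0.0214 over all. In exons at 0.5 to 0.75 it was -0.0169 over 16 members and -0.0184 over all, and at 0.2 to 0.5 -0.0134 over 11 and -0.0125 over all. In exons at 0.75 and above it was -0.00985 over 2 members and -0.0193 over all, and below 0.2 -0.0132 over 2 and -0.000697 over all. At promoters of 0.5 to 0.75 it was -0.0312 over 6 members and -0.0209 over all. At promoters of 0.2 to 0.5 it was -0.0239 over 10 and -0.0121 over all, and below 0.2 0.00136 over 5 and -0.000581 over all.

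The direction in the introns of OB cells was shared across families, but it was also that of most introns. Of all introns 74.4% were lower, and of those at a mean level of 0.5 to 0.75 84.6% were. Small families that were all lower are thus not set apart from introns in general. All 8 fibril-associated genes, all 4 basement membrane genes, all 4 transmembrane genes, both multiplexin genes (Col15a1 and Col18a1) and both short-chain genes (Col8a1 and Col8a2) were lower with siDNMT1, as were 6 of 7 fibril-forming genes and 3 of the 4 genes of the beaded filament group (Col6a1, Col6a2, Col6a3 and the related Col28a1). The largest intron difference was that of Col11a1, a chain of cartilage fibrils, which had 0.394, 0.403, 0.391 and 0.334, so that the siDNMT1 OB library stood 0.057 below the lowest of the others. Its 5′ UTR had 0.275, 0.235, 0.212 and 0.120 and its exons 0.489, 0.478, 0.475 and 0.411, with the same library lowest. Of members with no promoter level, the introns of Col28a1 had 0.657, 0.663, 0.655 and 0.639, those of Col14a1 0.564, 0.536, 0.553 and 0.537, and those of Col19a1 0.432, 0.430, 0.431 and 0.411. Within each of these genes the 4 libraries lie within 0.03 of each other, and no replicate shows how much of that is noise.

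In OB cells 6 entries of 5 genes changed by at least 0.1. They were the promoters of Col6a1 and Col8a2 (2.19% of all promoters changed), the exons of Col20a1 and Col24a1 (2.30% of all), the 5′ UTR of Col24a1 (1.78% of all), which is part of its exons, and the 3′ UTR of Col7a1 (3.65% of all). After the same centring the Col6a1 promoter (-0.0820), the Col20a1 exons (-0.0811) and the Col7a1 3′ UTR (-0.0816) were under 0.1, and the other 3 were not. No intron did (1.87% of all introns).

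The promoter of Col8a2 fell. Its level was 0.670 in NC uninduced, 0.637 in siDNMT1 uninduced, 0.640 in NC OB and 0.513 in siDNMT1 OB, a difference of -0.127 in OB cells and -0.0328 before induction. The siDNMT1 OB library was thus apart from 3 others that lay within 0.04 of each other. Overlapping and neighbouring entries did not show a fall of this size. In OB cells the island over the start differed by -0.0278 and the 5′ UTR by -0.00974. The shore upstream of the island, which shares most of its bases with the 2 kb upstream of the GENCODE start, was higher with siDNMT1 by 0.0442. The exons of Col8a2 had 0.611, 0.576, 0.587 and 0.528.

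The promoter of Col6a1 (ENSMUSG00000001119, minus strand of chromosome 10, 76708792 to 76726168) changed direction with induction. Its level was 0.452 in NC uninduced, 0.545 in siDNMT1 uninduced, 0.404 in NC OB and 0.30 in siDNMT1 OB. With siDNMT1 it was thus higher by 0.0931 in uninduced cells and changed by -0.104 in OB cells. The 2 kb upstream of the GENCODE start hold 29 CG, but how many of them were read is unknown. Both siDNMT1 levels equal ratios of small whole numbers, so few reads may lie behind them. The body of the gene barely moved: exons had 0.732, 0.739, 0.731 and 0.719 and introns 0.595, 0.585, 0.578 and 0.566. The promoter of Col5a1 had the same signs, at 0.586, 0.630, 0.638 and 0.566, with differences of 0.0436 and -0.0727. These, with Col8a2, were the 3 promoters whose OB difference lay furthest below the uninduced one, by -0.197, -0.116 and -0.0944.

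The 5′ UTR of Col24a1, a fibril-forming chain found in bone, swung the most. It had 0.737 in NC uninduced, 0.535 in siDNMT1 uninduced, 0.580 in NC OB and 0.755 in siDNMT1 OB, a change with siDNMT1 of -0.201 in uninduced and of 0.175 in OB cells. Its exons went the same way, at 0.797, 0.712, 0.679 and 0.793, and the annotated 5′ UTR is 1 piece of 636 bases with 19 CG inside those exons. The introns of Col24a1 stayed between 0.599 and 0.622. No island or shore was listed within 2 kb of its start, and how many of the 19 CG were read is unknown.

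The exons of Col20a1, a fibril-associated collagen, were lower with siDNMT1 at both times by about the same amount. They had 0.417 in NC uninduced, 0.320 in siDNMT1 uninduced, 0.316 in NC OB and 0.214 in siDNMT1 OB, differences of -0.0967 and -0.102. Each of these levels equals a ratio of small whole numbers, so few reads may lie behind them, and the read counts are unknown. The introns of the gene differed by 0.00279 and -0.0253. The 3′ UTR of Col7a1 had 0.546, 0.546, 0.584 and 0.479, a fall of 0.106 in OB cells with no gap before induction, over 8 annotated CG.

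Both siRNA comparisons, which share no library, gave a lower level with siDNMT1 at 11 of 21 promoters (36.6% of all promoters), 22 of 33 intron entries (48.3% of all introns), 18 of 31 exon entries (39.8% of all exons), 7 of 23 5′ UTRs (25.8% of all) and 6 of 12 3′ UTRs (52.9% of all). With a minimum of 0.03 at both times this held for the promoters of Col16a1 and Col8a2. The share of all promoters at that minimum was not counted, so these promoters cannot be read against a background. The Col16a1 promoter had 0.477, 0.433, 0.444 and 0.380, differences of -0.0438 and -0.0635, and its 5′ UTR had 0.882, 0.816, 0.896 and 0.821, differences of -0.0660 and -0.0744. In that 5′ UTR the NC libraries lay within 0.02 of each other, as did the siDNMT1 libraries. Both siDNMT1 libraries were below both NC libraries, as at 3 of 23 member 5′ UTRs and 12.3% of all. The levels of this 5′ UTR equal ratios of small whole numbers, so few reads may lie behind them, and the read counts are unknown. The start island of Col16a1 stayed between 0.0111 and 0.0194.

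**Figure D4:**
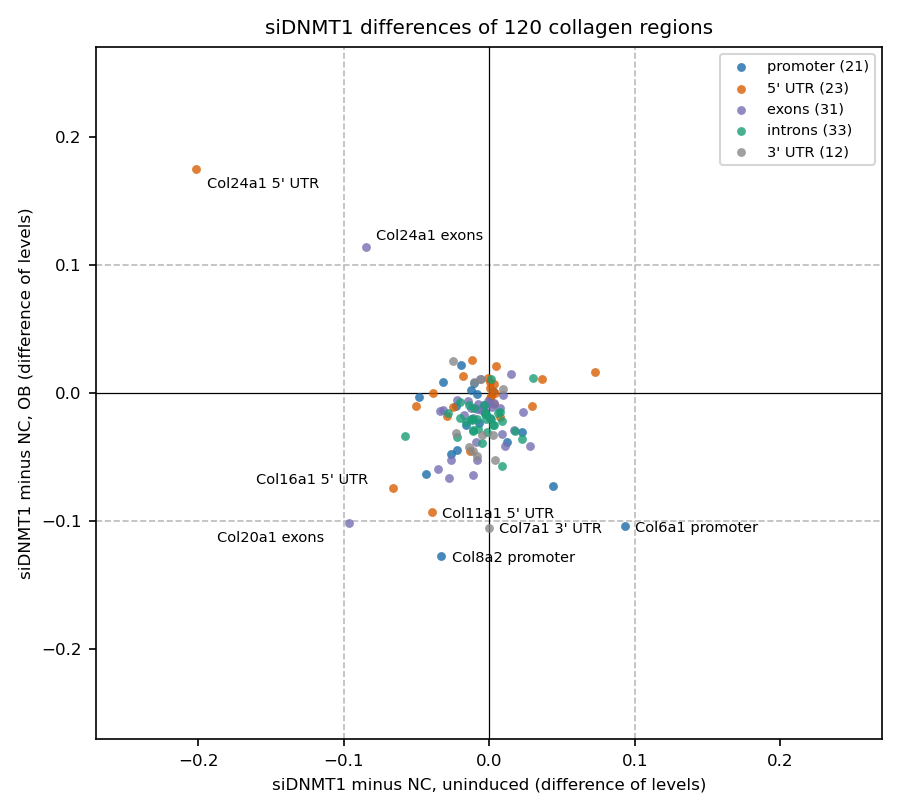
Difference in level between the siDNMT1 and NC libraries in uninduced cells (x axis) and OB cells (y axis) for 120 regions of collagen genes, colored by region class, with dashed lines at differences of 0.1 either way. Most points, introns above all, lie just below 0 on the y axis, while Col24a1 stands apart at upper left and Col6a1, Col8a2, Col20a1 and Col7a1 just pass the lower dashed line.

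Promoters of Col17a1 (-0.0265 before and -0.0476 after induction) and Col27a1 (-0.0224 and -0.0447) were lower with siDNMT1 both times, and the Col27a1 promoter had 0.313, 0.291, 0.275 and 0.230. Those of Col4a3 (-0.0160 and -0.0248), Col9a3 (-0.0226 and -0.0104), Col9a2 (-0.00732 and -0.0231), Col12a1 (-0.00373 and -0.00948), Col7a1 (-0.00304 and -0.0148), Col18a1 (-0.0482 and -0.00281) and Col4a4 (-0.00839 and -0.00108) were too. Col5a3, Col13a1, Col15a1 and Col26a1 were lower before induction and higher after it, with OB differences between 0.00215 and 0.0217. Col25a1, whose product is a neuronal transmembrane collagen, was higher before (0.0222) and lower after (-0.0308). None of these passes 0.1.

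The remaining comparisons asked what OB induction did within each siRNA. They use the same 4 libraries as the siRNA comparisons, so the values stand side by side and are not further evidence, but the NC pair and the siDNMT1 pair share no library with each other. The level after induction was lower at 13 of 21 promoters in NC cells (63.4% of all promoters) and 18 of 21 in siDNMT1 cells (73.1%), and at 12 in both (50.4% of all). In introns it was lower at 21 of 33 in NC (60.3%) and 28 in siDNMT1 cells (71.9%), and at 20 in both (48.5%). In exons it was lower at 17 of 31 (62.5%) and 24 (72.4%), and in 5′ UTRs at 17 of 23 (63.5%) and 18 (70.2%). The median promoter difference was -0.0178 in NC cells and -0.0279 in siDNMT1 cells, beside -0.00320 and -0.00654 over all promoters. These medians were not matched for level, and member promoters were the more methylated (0.342 against 0.191 in the NC uninduced library).

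Falls of at least 0.1 with induction were few. In NC cells they were at 0 member promoters (1.41% of all), the exons of Col20a1 and Col24a1 (1.37% of all), the introns of Col12a1 (0.987% of all) and the 5′ UTR of Col24a1 (1.55% of all). In siDNMT1 cells they were at the promoters of Col6a1 and Col8a2 (2.33% of all), the exons of Col20a1 (2.56% of all), the introns of Col12a1 (2.32% of all) and the 5′ UTR of Col11a1 (2.12% of all), while the 5′ UTR of Col24a1 rose by 0.219. Falls in both were at the introns of Col12a1 (0.471% of all introns) and the exons of Col20a1 (0.520% of all exons). The caution given above on the reads behind the Col20a1 exon levels holds here too.

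Col12a1 encodes a fibril-associated collagen of tendon and bone surfaces, and it was singled out after its values were seen. Its introns had 0.632 in NC uninduced and 0.4996 in NC OB, and 0.574 in siDNMT1 uninduced and 0.466 in siDNMT1 OB, so that the level fell by 0.132 and dropped by 0.107. Its promoter had 0.235 and 0.174 in NC cells and 0.232 and 0.165 in siDNMT1 cells, and the island over its start (chr9:79718443-79719819) 0.183 and 0.129, then 0.179 and 0.128. In all these regions both OB libraries were below both uninduced libraries, which is common: it held at 8 of 21 member promoters (40.1% of all promoters), 15 of 33 intron entries (36.0% of all), 11 of 31 exon entries (37.8% of all) and 11 of 15 member islands (50.5% of all). Its exons, at 0.0695 to 0.110, and its 5′ UTR, at 0.0144 to 0.0229, were low throughout.

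Col15a1, a multiplexin of basement membrane zones, was also singled out afterwards, as were the promoters of Col5a3, Col26a1 and Col4a4. Its promoter had 0.301 and 0.282 uninduced (NC, then siDNMT1) and 0.230 and 0.252 after induction, its exons 0.277 and 0.245, then 0.202 and 0.189, its introns 0.423 and 0.408, then 0.376 and 0.353, and its start island (chr4:47208068-47208819) 0.164 and 0.156, then 0.120 and 0.122. The promoter of Col5a3 had 0.191 and 0.159, then 0.119 and 0.128, and that of Col26a1 0.227 and 0.215, then 0.188 and 0.190. In each of these regions the induced libraries were below the uninduced ones, as at 40.1% of all promoters, 37.8% of all exons, 36.0% of all introns and 50.5% of all islands. Col4a4 went the other way at its promoter, with 0.2002 and 0.192, then 0.234 and 0.233, and both OB libraries were above both uninduced ones at 2 of 21 member promoters (8.47% of all).

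Most CpG islands within 2 kb of a member start were also lower after induction. Of 15 such islands (the one shared by Col4a1 and Col4a2 counted once), 14 were lower in OB than in uninduced NC cells and 13 in siDNMT1 cells, and 12 were lower in both, beside 71.4%, 79.9% and 59.96% of the 14095 islands listed. Their median differences were -0.0350 and -0.0324, beside -0.00313 and -0.00477 over all islands. Where the mean level reached 0.1 the medians were -0.0425 and -0.0371 over 10 member islands and -0.0196 and -0.0283 over all 5405 such islands. The island in Col27a1 (chr4:63213897-63216015) had 0.228 and 0.206 uninduced, then 0.187 and 0.157, and that in Col26a1 (chr5:136881532-136883242) 0.188 and 0.171, then 0.140 and 0.131. The short island of 207 bases in Col9a2 (chr4:121039610-121039816) jumped between libraries, with 0.567, 0.394, 0.333 and 0.469, while the shores on either side of it differed by less than 0.04 in each of the 4 comparisons.

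**Figure D5:**
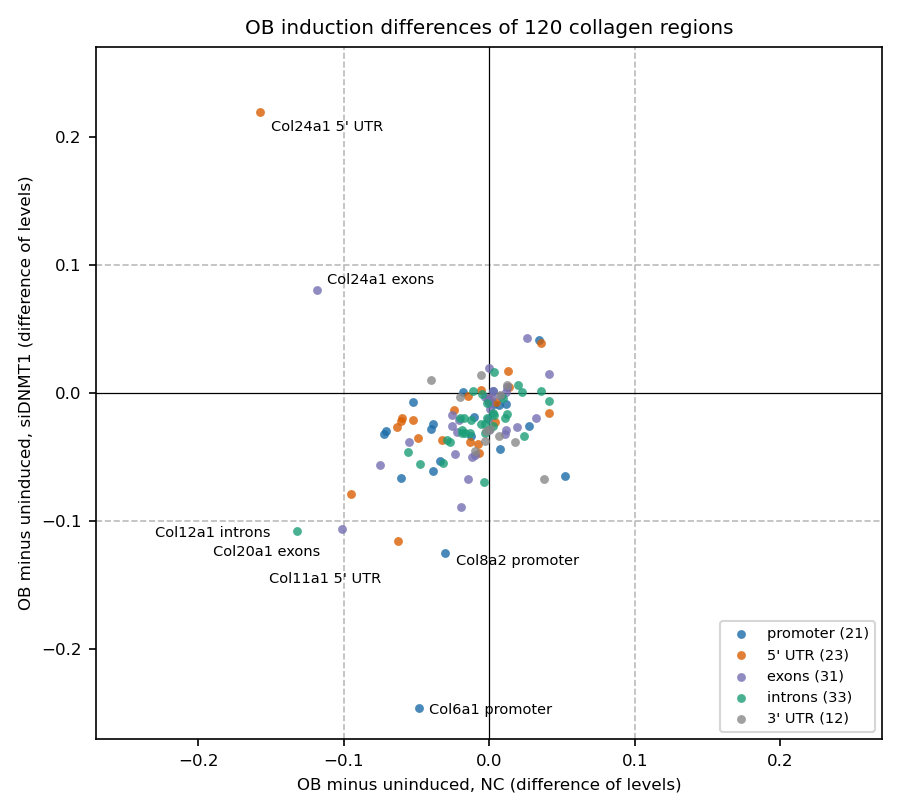
Difference in level between OB and uninduced libraries in NC cells (x axis) and siDNMT1 cells (y axis) for 120 regions of collagen genes, colored by region class, with dashed lines at differences of 0.1 either way. The Col12a1 introns and Col20a1 exons lie below -0.1 on both axes, the Col6a1 promoter fell mainly in siDNMT1 cells, and the Col24a1 5′ UTR has opposite signs.

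Of 40 genes that fold, process, bind or break down collagen, 31 had a promoter level. None of these promoters changed by at least 0.1 with siDNMT1 at either time (1.48% of all promoters before induction and 2.19% in OB cells). Before induction 15 were lower (53.2% of all promoters) and 16 higher, with a median of 0.00205. In OB cells 17 were lower (64.0% of all) and 14 higher, with a median of -0.00333. The largest promoter differences were at Bmp1, the procollagen C-proteinase, which had 0.440 with NC and 0.491 with siDNMT1 before induction, and at the lysyl oxidase homologue Loxl4, which had 0.558 and 0.490 in OB cells. In introns of OB cells 30 of 38 were lower (74.4% of all introns), with a median of -0.0107 (all introns -0.0131). Chosen after their values were seen, exons passed 0.1 at the integrin gene Itga2 before induction (0.461 with NC, 0.240 with siDNMT1), beside 1.63% of all exons. In OB cells they did at Ctsk, the osteoclast collagenase (0.738 and 0.625), and at Pcolce, an enhancer of procollagen cleavage (0.234 and 0.452), beside 2.30% of all exons.

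With induction, the promoters of the processing and cross-linking group were lower at 9 of 9 in NC cells (63.4% of all promoters) and 8 of 9 in siDNMT1 cells (73.1%). Their medians were -0.0534 and -0.0471, beside -0.00320 and -0.00654 over all promoters. These medians were not matched for level, and promoter means in the group ran from 0.0542 at Adamts14 to 0.559 at Loxl4. Also chosen afterwards, Loxl1, a cross-linking enzyme, had 0.585 and 0.518 in the NC uninduced and NC OB libraries and 0.592 and 0.511 in the siDNMT1 pair, and Pcolce2 had 0.332 and 0.255, then 0.337 and 0.241. In the folding and export group the promoter of P4hb, the protein disulfide isomerase subunit of prolyl 4-hydroxylase, stayed between 0.0286 and 0.0322. The group had medians of -0.00376 and -0.00955. Most of its promoters had a mean level below 0.1, so the medians of these groups do not compare promoters of like level.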

How the data were processed

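Reduced representation bisulfite sequencing (as labelled) was read in 4 libraries of C3H10T1/2 cells, 1 per condition. The processing notes of the submitters name CASAVA, Trimmomatic 0.36, Bismark 0.16.3 and the mm10 build. The authors deposited, per region, the fraction of methylated CpG cytosines. The coverage minimum, the weighting of cytosines and the annotation release are not given in the sources used here. No test was run: each condition has 1 library, and an additive fit of siRNA and induction would leave 1 residual degree of freedom and assume the same siRNA effect at both times. Without read counts no interval was given.

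Differences were taken between libraries over regions with a level in all 4, and counted from 0.1. Counts of members are set beside the share of all regions of the class. The exceptions are counts at the alternative thresholds or the 0.03 minimum, and the highest promoters with siDNMT1 OB lowest. All 14354 islands on named chromosomes start and end with CG on GRCm38 (starts counted from 0), the build used for positions (GENCODE vM21), CG counts and sequences (RefSeq). The functions that take and summarise differences were tested on simulated data, and the other steps were not tested in this way. The genes, families and pathway list were chosen with earlier results of these data known. Genes given in full are those with a change of at least 0.1 with siDNMT1, the 5 highest and 5 lowest promoters, promoters with same-direction siDNMT1 differences of at least 0.03, the 3 largest gaps between times, and neighbouring pairs, and of pathway genes the largest promoter differences. The alternatives tried covered threshold, listing, centring, minimum level, mean and paired starts. Python 3.11.15, pandas 2.3.3, scipy 1.17.1, pysam 0.24.0 and matplotlib 3.10.9 were used.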

Additional observations from a re-analysis of the deposited data

Results flagged for a closer look

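Regions whose siDNMT1 minus NC difference was at least 0.05 in size at both times and opposite in sign were set apart. With 1 library per condition this contrast between times was not tested. The 5′ UTR of Col24a1 differed by -0.201 in uninduced and 0.175 in OB cells, a gap of 0.376. The exons of Col24a1, which contain that 5′ UTR, differed by -0.0849 and 0.114, a gap of 0.199. The promoter of Col6a1 differed by 0.0931 and -0.104, a gap of -0.197. Over all genes 1.16% of 5′ UTRs, 1.25% of exons and 1.10% of promoters met the same rule. Read depth behind these entries is unknown, and its part in the result was not tested.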

How the results depend on the processing

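Centring each library on the median of all regions of the class whose mean level reached 0.5 reversed 5 of 6 median siRNA differences. The shift removed was -0.00708 for promoters, -0.00696 for gene bodies (exon and intron entries) and -0.00877 for UTRs before induction, and -0.0219, -0.0204 and -0.0240 after it. Centred medians before induction were -0.00355 for promoters, 0.000135 for gene bodies and 0.00411 for UTRs. In OB cells they were 0.00223, 0.00110 and 0.0200. The shift comes from regions at 0.5 or above but was taken from members of every level. Of the member promoters 5 had a mean level below 0.2 and 10 lay at 0.2 to 0.5. The reversal therefore does not compare members with regions of like level. At promoters of 0.5 to 0.75 the OB median before centring was -0.0312 over 6 members and -0.0209 over all. At 0.2 to 0.5 it was -0.0239 over 10 and -0.0121 over all, and below 0.2 0.00136 over 5 and -0.000581 over all. With the mean the promoter value before induction was -0.00642, and the UTR values were -0.0119 before and -0.00983 after induction. Where only regions at 0.2 or above were kept, the UTR medians were -0.0108 and -0.0104. With levels needed only in the compared libraries the UTR median before induction was -0.00290, and without Col4a2 and Col4a4 that in OB cells was -0.000208. At a threshold of 0.05 the counts before induction were 1 higher promoter, 3 lower gene body entries, and 3 lower and 1 higher UTRs, and in OB cells 4 lower promoters, 7 lower gene body entries and 4 lower UTRs. At 0.2 every count in OB cells was 0. No share over all regions was set beside the counts at 0.05 and 0.2, so they cannot be read against a background. Of the 7 named siDNMT1 changes of at least 0.1, 4 kept that size after centring, and the Col6a1 promoter (-0.0820), Col20a1 exons (-0.0811) and Col7a1 3′ UTR (-0.0816) in OB cells did not. No paired fit was run, and leaving out a library would leave a condition with none. Depth is unknown, so entries with few CG, such as short islands and UTRs, cannot be weighed against longer ones.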
